A study of Mus musculus with 24 samples.

Results

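The regions described here are CUT&RUN peaks of H3K9me3, histone H3 trimethylated on lysine 9, that overlapped by 1 bp or more the annotated body of a mouse protein-coding gene whose symbol is Zfp followed by a digit. RefSeq lists 397 such zinc finger genes among 21883 protein-coding genes on chromosomes 1 to 19, X and Y of GRCm38.p6, the assembly of mm10. The 4 H3K9me3 lists held 1582 such peaks among 204762, and the 16 lists of the study held 1665620 peaks in all. By library, 349 and 365 peaks lay over Zfp genes in ground-state replicates 1 and 2, and 592 and 276 in day 1 replicates 1 and 2. A gene was called clustered when another Zfp gene lay within 200 kb, which held for 245 genes in 53 clusters, and single otherwise, which held for 152 genes. The genes nearest to that distance were Zfp516 and Zfp236, single at 216.8 kb with a mean body share of 0, Zfp951, single at 217.6 kb with 80.6%, and Zfp433, clustered at 179.9 kb with 54.5%.

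The cells were iMGT-Myh6-eGFP-MEF, a mouse embryonic fibroblast line in which doxycycline switches on the cardiac reprogramming factors MEF2C, GATA4 and TBX5, with an eGFP reporter of Myh6. H3K9me3 and the linker histone H1.0 were each mapped in ground-state cells, which were not reprogrammed (n = 2), and in cells given control siRNA (siControl) and collected 1 day after 1 µg/mL doxycycline (n = 2). MEF2C was mapped at the same day in 2 samples under siControl, 3 under siJunb and 3 under siH1f0, where Junb encodes an AP-1 subunit and H1f0 encodes H1.0. All cells carried the inducible transgenes, and whether the line is 1 clone is not given in the sources used here. Because MEF2C itself was induced, its peaks describe the transgene product together with any endogenous protein, and ground-state MEF2C was not analysed here. The labels number the samples as biological replicates without naming separate cultures, and a p-value here reflects sample-to-sample spread that could be technical in part.

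Most Zfp genes encode proteins with arrays of C2H2 zinc fingers that bind DNA, and many also carry a KRAB domain. The KRAB domain recruits TRIM28, which in turn brings the methyltransferase SETDB1 and the HP1 proteins that write and hold H3K9me3, mainly at retrotransposons. KRAB zinc finger genes sit in tandem arrays, and in several cell types H3K9me3 has been described over the 3′ ends of these genes themselves, where the finger repeats are encoded.

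List length bears on every level below. The H3K9me3 lists covered 65.9 and 315.0 Mb in ground-state replicates 1 and 2, and 109.3 and 363.4 Mb in day 1 replicates 1 and 2. The names of both replicate 1 lists start with the letter M and those of both replicate 2 lists do not, so list length moved with the replicate number and with this naming. For H1.0 the M lists were ground-state replicate 1 and day 1 replicate 2, with 92.97 and 28.57 Mb, against 1109.4 and 911.0 Mb in the others. MEF2C lists covered 13.45 to 22.54 Mb with the M and 56.40 to 89.82 Mb without it. Read numbers behind a peak were not used here, so no interval for counting error is given.

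Promoter sequences of 6 Zfp genes show the contrast that the peaks draw between gene starts. Each line holds 250 bases before to 50 bases after the annotated start, 5′ to 3′ along the gene's strand, from RefSeq on GRCm38.p6, with CG dinucleotides in capitals. Among Zfp genes with a promoter in that table (331 of 397), the first 3 had the highest body shares of those with H3K9me3 over the promoter in all 4 lists. The last 3 had the highest body shares of those with a body share of 50% or more in all 4 lists and no H3K9me3 over the promoter in any list. These 6 were chosen after their values were seen.
Zfp980 (chr4:145670447-145670746, plus strand): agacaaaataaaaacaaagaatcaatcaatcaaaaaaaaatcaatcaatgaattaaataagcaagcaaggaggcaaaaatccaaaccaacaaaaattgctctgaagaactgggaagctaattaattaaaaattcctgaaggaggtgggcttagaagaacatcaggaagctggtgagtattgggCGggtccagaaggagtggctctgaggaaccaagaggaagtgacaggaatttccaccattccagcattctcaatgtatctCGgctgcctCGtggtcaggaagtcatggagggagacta
Zfp985 (chr4:147553027-147553326, plus strand): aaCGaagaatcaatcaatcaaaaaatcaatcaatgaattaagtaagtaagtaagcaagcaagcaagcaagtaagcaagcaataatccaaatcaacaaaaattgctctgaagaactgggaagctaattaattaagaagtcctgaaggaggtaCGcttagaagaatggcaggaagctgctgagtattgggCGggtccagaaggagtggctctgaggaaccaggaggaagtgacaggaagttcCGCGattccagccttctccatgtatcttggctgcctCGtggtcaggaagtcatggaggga
Zfp979 (chr4:147642459-147642758, minus strand): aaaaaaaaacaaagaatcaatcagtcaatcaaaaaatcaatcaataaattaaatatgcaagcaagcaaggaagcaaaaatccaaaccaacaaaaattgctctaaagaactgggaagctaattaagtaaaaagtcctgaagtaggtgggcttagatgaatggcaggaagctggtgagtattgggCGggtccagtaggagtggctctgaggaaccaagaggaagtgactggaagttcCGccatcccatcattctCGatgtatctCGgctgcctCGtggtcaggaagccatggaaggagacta
Zfp781 (chr10:81930463-81930762, minus strand): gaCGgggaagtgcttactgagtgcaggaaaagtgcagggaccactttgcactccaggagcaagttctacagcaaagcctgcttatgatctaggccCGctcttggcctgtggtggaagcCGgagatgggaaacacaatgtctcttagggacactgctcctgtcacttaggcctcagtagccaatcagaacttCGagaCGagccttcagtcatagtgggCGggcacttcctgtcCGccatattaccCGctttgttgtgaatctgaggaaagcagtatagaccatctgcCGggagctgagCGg
Zfp110 (chr7:12834511-12834810, plus strand): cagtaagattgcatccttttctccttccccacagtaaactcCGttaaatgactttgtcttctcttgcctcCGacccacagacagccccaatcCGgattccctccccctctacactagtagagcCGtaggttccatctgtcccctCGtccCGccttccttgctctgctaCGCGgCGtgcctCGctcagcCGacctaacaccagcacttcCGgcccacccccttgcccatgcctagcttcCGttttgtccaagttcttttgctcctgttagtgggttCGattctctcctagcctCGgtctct
Zfp932 (chr5:109996260-109996559, plus strand): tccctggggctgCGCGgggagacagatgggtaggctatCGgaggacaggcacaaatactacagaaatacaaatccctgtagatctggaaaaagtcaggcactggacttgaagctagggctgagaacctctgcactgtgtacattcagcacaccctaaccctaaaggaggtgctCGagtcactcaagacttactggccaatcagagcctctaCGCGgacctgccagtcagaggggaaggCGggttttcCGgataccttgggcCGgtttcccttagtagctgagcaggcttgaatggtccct

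The 3 promoters under H3K9me3 held 3 CG dinucleotides (Zfp980), 6 (Zfp985) and 5 (Zfp979), and the 3 free ones held 10 (Zfp781), 15 (Zfp110) and 9 (Zfp932). In global alignments, the promoter of Zfp980 was 89.8% identical to that of Zfp979 and 81.9% identical to that of Zfp985, whereas the 3 free promoters were 45.8% to 53.3% identical to each other. How reads that match several near-identical copies were placed is not given in the sources used here, and this applies to every value on the chromosome 4 genes below. H3K9me3 lay over the promoter in all 4 lists at 7 Zfp genes of 331 (2.11%, against 0.766% of 17491 promoters), 5 of them on chromosome 4, and in no list at 297. The median CG number was 6 in those 7 promoters (range 3 to 25), 14 in those 297 (range 0 to 59) and 13 over all promoters. The ranges overlap, and Zfp982 on chromosome 4, with a body share of 83.1%, held 16 CG under H3K9me3 in all 4 lists. The low CG numbers of the first 3 sequences thus do not hold for every promoter under the mark. The AP-1 motif TGANTCA, a palindrome that reads alike on both strands, was in 11 Zfp promoters (3.32%, against 7.03% of all promoters) and in none of the 22 promoters of genes with 50% or more of the body under H3K9me3 in all 4 lists. At the family rate of 3.32%, 22 promoters are too few for this absence to set them apart.

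H3K9me3 was not spread evenly over the family. A peak lay in the body of 146 Zfp genes in all 4 lists (36.8%), where 11.6% of protein-coding genes did so. It lay in the body of 209 in at least 1 list (52.6%, against 30.2%), and the other 188 were free of peaks in every list. The mean share of a Zfp body under peaks was 11.98% and 21.7% in ground-state replicates 1 and 2, and 12.5% and 20.1% in day 1 replicates 1 and 2. The same means over other protein-coding genes were 1.56% and 6.22%, and 2.49% and 6.86%. Zfp genes were above other genes in 4 of 4 lists by a mean of 12.3 percentage points (exact sign-flip permutation over 4 libraries, two-sided p = 0.125, the smallest that 4 libraries allow, and 0.202 with Benjamini-Hochberg adjustment over 21 comparisons). The ratio to other genes was 7.68 and 5.04 in the 2 short lists and 3.49 and 2.93 in the 2 long ones. After each list was cut, strongest peaks first, to the 65.9 Mb of the shortest, Zfp shares were 11.98%, 15.8%, 11.3% and 14.8%, and those of other genes ran from 1.53% to 1.68%.

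Peaks over Zfp genes were wider and stronger than the median peak of their lists. Wide peaks meet a gene body by 1 bp more readily than narrow ones. Peaks over other gene bodies were not measured in the same way, so the excess cannot be called particular to Zfp genes. Their median width was 2968 bp against 2049 bp over all peaks in ground-state replicate 1, 4785 against 2967 bp in ground-state replicate 2, 1660 against 1154 bp in day 1 replicate 1 and 5891 against 4788 bp in day 1 replicate 2. The authors' maximum signal of the median Zfp peak stood at the 76.3rd to 80.75th percentile of its own list. The widest peak over Zfp genes spanned 360.1 kb of chromosome 4 in day 1 replicate 2 and took in Zfp534, Zfp979, Zfp982, Zfp984 and Zfp985.

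Clustered genes carried more of the mark than single ones. The mean body share was 15.7% against 5.97% in ground-state replicate 1, 27.7% against 12.1% in ground-state replicate 2, 16.3% against 6.43% in day 1 replicate 1 and 25.6% against 11.2% in day 1 replicate 2. Clustered genes were higher in 4 of 4 lists, by a mean of 12.4 points (exact sign-flip permutation, p = 0.125, the smallest possible; adjusted p = 0.202). The difference was 9.24 points without the chromosome 4 clusters, 13.9 points when each cluster was counted once and 21.6 points by summed body length. A peak lay in all 4 lists in 109 clustered genes (44.5%) and 37 single genes (24.3%).

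**Figure D1:**
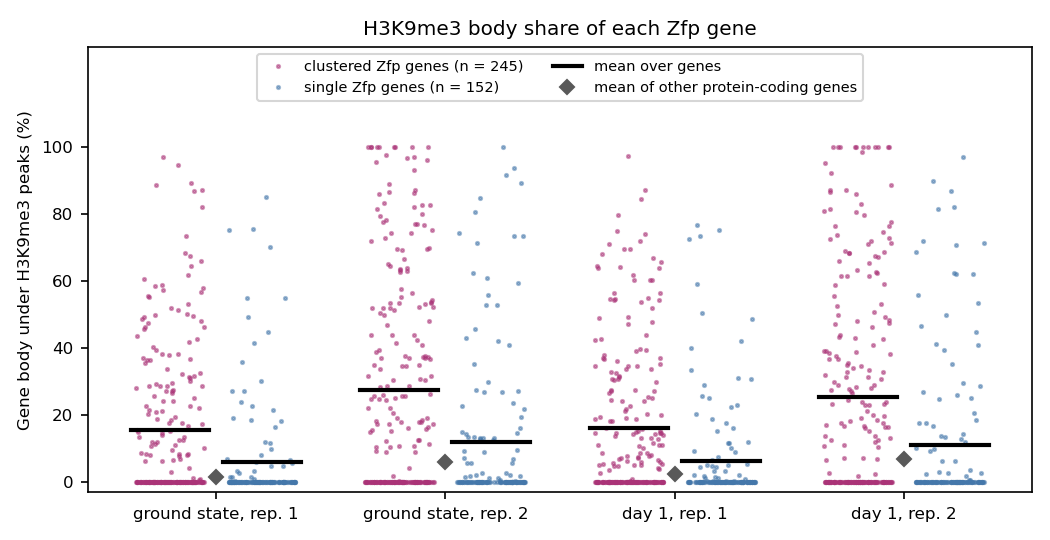
Share of each Zfp gene body under H3K9me3 peaks (vertical axis, %) in the 4 lists (horizontal axis), with clustered genes (n = 245) in red and single genes (n = 152) in blue; black bars are means over genes and grey diamonds the mean of other protein-coding genes. In every list the clustered mean, 15.7% to 27.7%, lies above the single mean, 5.97% to 12.1%, and many genes of both kinds sit at 0.

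The difference between clustered and single genes depended on gene length. Among the longest Zfp genes, of 25 kb or more, the mean share over the 4 lists was 38.0% in 64 clustered genes and 5.91% in 69 single genes. Among genes of 14 to 25 kb it was 18.3% in 92 clustered and 16.6% in 39 single genes, and among shorter ones 12.4% in 89 and 6.86% in 44. In the order of the lists, the clustered minus single difference was 2.20, 2.44, 1.27 and 1.06 points in the middle class and 24.8, 39.1, 27.3 and 37.1 points in the longest. These classes were chosen with the values known and were not tested.

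Individual clusters differed widely in mean share. Of the 16 clusters of 5 or more genes, 6 had a mean share above 20% over the 4 lists and 3 had one under 5%. The cluster of 12 genes from Zfp992 to Zfp933 on chromosome 4 (146449030 to 147849126) had 53.8% and 70.2% in the ground-state lists and 61.4% and 69.2% in the day 1 lists, and none of its genes was free of peaks. This region of chromosome 4 is known for zinc finger genes that repress endogenous retroviruses. The largest cluster, 23 genes from Zfp712 to Zfp273 on chromosome 13, averaged 15.3%, with 11 genes marked in all 4 lists and 8 in none. The 18 genes from Zfp677 to Zfp946 on chromosome 17 averaged 20.4%, with 11 marked in all 4 lists and 6 in none. Neighbouring genes of a cluster thus covered a wide range: Zfp273 reached 63.0% in the chromosome 13 cluster and Zfp994 reached 62.2% in the chromosome 17 cluster, beside genes at 0. On chromosome 7, the 15 genes from Zfp84 to Zfp146 averaged 17.3% and the 12 from Zfp180 to Zfp575 5.85%, of which Zfp180 alone was marked in all 4 lists and 9 were marked in none. The 8 genes from Zfp553 to Zfp629, also on chromosome 7, averaged 0.182%, and 7 of them were free of peaks. On chromosome 17, the 12 genes from Zfp871 to Zfp101 averaged 19.2%, with 5 marked in all 4 lists and 7 in none.

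**Figure D2:**
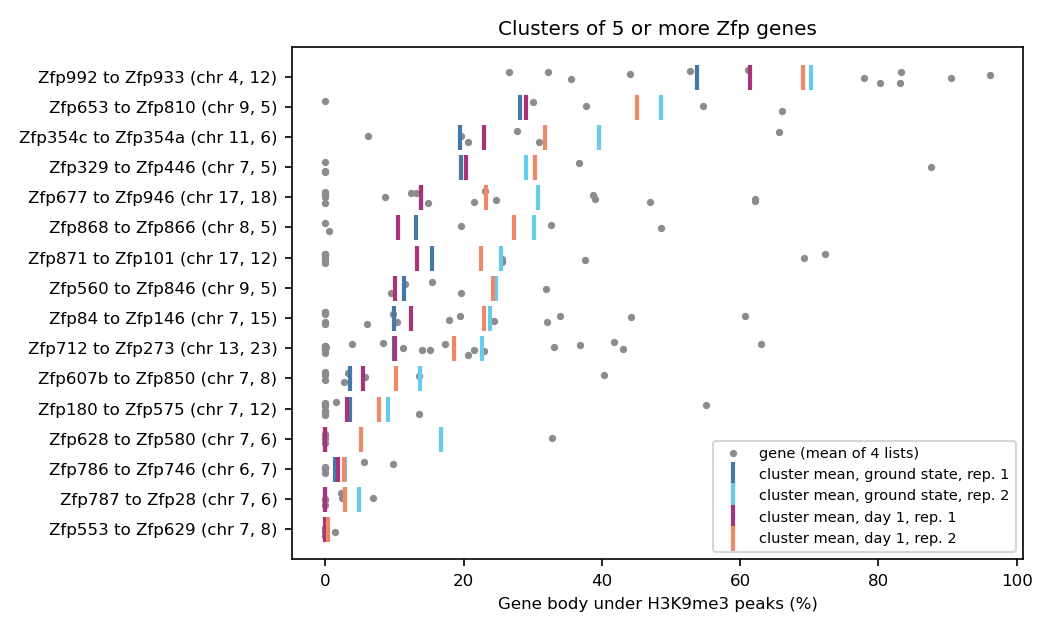
Body share under H3K9me3 (horizontal axis, %) in each of the 16 clusters of 5 or more Zfp genes (vertical axis, named by first and last gene, with chromosome and number of genes); grey points are genes (mean of the 4 lists) and coloured bars the cluster mean in each list. The chromosome 4 cluster lies highest, at 53.8% to 70.2%, and the Zfp553 to Zfp629 cluster lowest, at 0 to 0.347%.

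Bodies with a share of 50% or more were few but more frequent in the family than among all protein-coding genes. They numbered 30 Zfp genes in both ground-state lists (7.56%, against 0.982% of all protein-coding genes). In both day 1 lists they numbered 33 (8.31%, against 1.5%). In all 4 lists they numbered 26 (6.55%, against 0.727%), of which 20 were clustered and 6 single. By the same counts, in that order, olfactory receptor genes reached 3.78%, 7.57% and 1.98%, so that they lay near Zfp genes at day 1. The count for the ground state was 82 without its replicate 1, and that for day 1 was 69 without its replicate 1, because only the longer list then remained. Zfp980 led with 88.8% and 100% in the ground-state lists and 97.4% and 100% in the day 1 lists. Zfp992 had 97.1%, 100%, 87.3% and 100% in the same order. Both lie in the chromosome 4 arrays and were covered nearly end to end in every list.

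Outside chromosome 4, Zfp68 on chromosome 5 had 94.7%, 95.5%, 84.5% and 100%. Zfp781 on chromosome 10 had 87.1%, 96.4%, 72.1% and 98.5%. Zfp110 on chromosome 7, which encodes a protein that binds the neurotrophin receptor p75, had 89.5%, 93.2%, 75.1% and 92.4%. These 3 were lowest in day 1 replicate 1. The remaining clustered genes of the top 8, Zfp985, Zfp979 and Zfp982, averaged 83.1% to 90.5% over the 4 lists and were covered wholly, at 100%, in both long lists.

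Single genes reached similar levels in a few cases. Zfp640 on chromosome 13 had 75.6% and 100% in the ground-state lists and 73.4% and 97.3% in the day 1 lists, and Zfp930 on chromosome 8 had 85.2%, 85.0%, 76.7% and 87.0%. Zfp33b and Zfp951 on chromosome 5 averaged 81.8% and 80.6%, and Zfp808 and Zfp867 averaged 65.7% and 64.7%. Zfp33b and Zfp951 lie 217.6 kb apart, just beyond the cluster distance.

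Of 22 zinc finger genes listed for a known role, 14 were free of H3K9me3 in every list. The other 8 had a peak in at least 1 list (36.4%, against 30.2% of all genes), and 2 were marked in all 4 lists (9.09%, against 11.6% of all genes). Those 2 were Zfp809 and Zfp932, both known repressors of endogenous retroviruses. Zfp809 had 29.4% and 74.4% in the ground-state lists and 33.7% and 81.1% in the day 1 lists. Zfp932 had 87.4%, 77.8%, 71.2% and 87.2%. The genes at 0 included Zfp57, which maintains methylation at imprinted loci, Zfp568, a repressor of placental Igf2 transcripts, Zfp36, which encodes the RNA-decay protein tristetraprolin, and the transcription factor genes Zfp281 and Zfp143. The remaining 6 genes had a peak in 1 to 3 lists, and their mean shares were 17.3% in Zfp42 and 0.0700% to 4.36% in the rest.

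On average over Zfp genes of known strand, marked or not, H3K9me3 lay towards the 3′ end of the body. Strand was known for 331 Zfp genes, and each body was cut into 10 equal segments from start to end. The first 2 segments, called the 5′ end here, were covered by 3.81% and 10.8% in the ground-state lists and 4.15% and 10.2% in the day 1 lists, and the last 2, called the 3′ end, by 22.3% and 31.1%, and 23.1% and 30.5%. The 3′ end exceeded the 5′ end in 4 of 4 lists by a mean of 19.5 points (exact sign-flip permutation, p = 0.125, the smallest possible; adjusted p = 0.202). Other genes showed differences of 0.323, −0.00620, 0.262 and 0.310 points, and the Zfp difference exceeded theirs in 4 of 4 lists by 19.3 points (exact sign-flip permutation, p = 0.125; adjusted p = 0.202). Clustered genes went from 5.45% to 29.2% in ground-state replicate 1, from 12.3% to 40.6% in replicate 2, from 5.45% to 30.4% in day 1 replicate 1 and from 11.7% to 40.3% in replicate 2. Single genes went from 0.924% to 10.1%, from 8.34% to 14.5%, from 1.85% to 10.3% and from 7.50% to 13.2%. The mean difference was 26.4 points in clustered and 7.37 points in single genes. Single members differed. Among the named clustered genes of highest body share, it ran from −15.5 points in Zfp979 to 56.1 points in Zfp110.

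**Figure D3:**
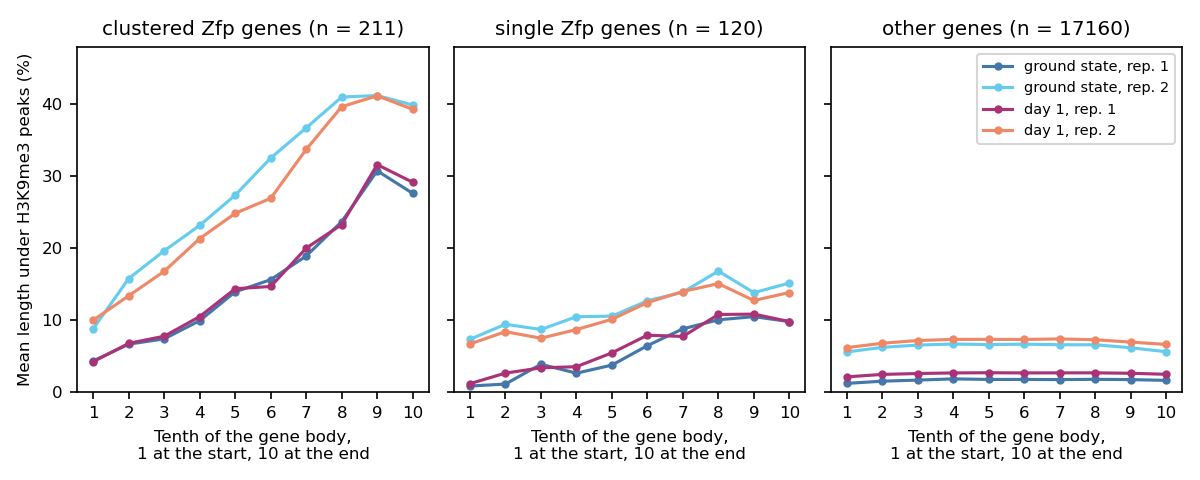
Mean length under H3K9me3 peaks (vertical axis, %) in each of 10 equal segments of the gene body from start to end (horizontal axis) for clustered Zfp genes (n = 211), single Zfp genes (n = 120) and other protein-coding genes (n = 17160), 1 line per list. Lines climb towards the 3′ end in clustered genes and less so in single genes, and run flat in other genes; lists of the same replicate number lie close together whatever the state.

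Counted by gene, the 3′ end exceeded the 5′ end by 10 points or more in all 4 lists in 74 of 331 Zfp genes (22.4%, against 1.56% of all genes with a strand), and the reverse held in 5 (1.51%, against 1.02%). Those 5, named after their values were seen, were Zfp846, Zfp445, Zfp660, Zfp873 and Zfp758. Zfp445 encodes a regulator of imprinted loci. Within 500 bp of the gene end, a peak was present in all 4 lists at 59 Zfp genes (background 1.9%), and within 500 bp of the start at 10 (1.18%). Most peaks lay wholly inside a gene: 77.4%, 65.4%, 86.8% and 56.6% of peak and gene pairs in the order of the lists. Peaks that crossed the gene end made up 19.5%, 27.0%, 10.98% and 32.5%, and peaks that crossed the start 3.08%, 4.76%, 2.24% and 6.83%.

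The state of the cells made no difference to the family mean that exceeded the spread between replicates. Zfp genes averaged 16.9% ± 6.89 (SD, n = 2) in the ground state and 16.3% ± 5.33 (SD, n = 2) at day 1, a difference of −0.544 points (exact permutation, two-sided p = 1, where 2 against 2 libraries cannot go below 0.333). Within replicate number 1, and so within the M lists, day 1 was higher by 0.560 points, and within number 2 the difference was −1.65 points. Without ground-state replicate 2 the difference was 4.33 points and without ground-state replicate 1 it was −5.41 points. The excess of clustered over single genes differed between the states by −0.472 points (exact permutation, p = 1), and by 2.43 points without ground-state replicate 2. Over the 397 genes, body shares correlated at r = 0.962 and 0.963 between lists of the same replicate number and different states, and at 0.880 to 0.897 between lists of different numbers. These are descriptions across genes, which are not independent replicates.

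Gene by gene, 44 Zfp genes were higher at day 1 in both replicate numbers, 43 were lower in both, 81 moved opposite ways and 229 had a difference of 0 in at least 1 number. A difference of 10 points or more in both numbers was seen upwards in 5 Zfp genes (1.26%, against 0.713% of all genes) and downwards in 5 (1.26%, against 0.096%). Only a marked gene can fall, and 36.8% of Zfp genes against 11.6% of all genes had a peak in all 4 lists. The background for falls is thus not matched for genes that could fall. The genes named below were ranked by mean difference instead, and Zfp42, Zfp987, Zfp105, Zfp942 and Zfp975 did not reach 10 points in both numbers. By the size of the mean difference, the upper extreme was Zfp42, which encodes the pluripotency marker REX1. Zfp42 had 0 and 14.8% in the ground-state lists and 9.24% and 45.0% at day 1, so that ground state and day 1 overlap across replicate numbers and separate only within them. It carried no H1.0 and no MEF2C peak in any list. Zfp987 had 33.8% and 97.0% against 64.0% and 100%, and Zfp534 had 24.4% and 82.3% against 38.1% and 100%, both on chromosome 4. Zfp660 and Zfp105, neighbours on chromosome 9, were higher by a mean of 14.8 and 12.6 points.

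At the lower extreme, Zfp977 had 40.4% and 100% in the ground state and 11.2% and 86.1% at day 1. Zfp273 had 64.6% and 82.9% against 36.3% and 68.4%. The states overlapped across numbers in both genes. Zfp942, Zfp975 and Zfp955a differed by −18.9, −18.8 and −17.6 points. Zfp977 and Zfp975 lie in 1 cluster on chromosome 7. With 2 lists a state, no test was made of single genes.

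**Figure D4:**
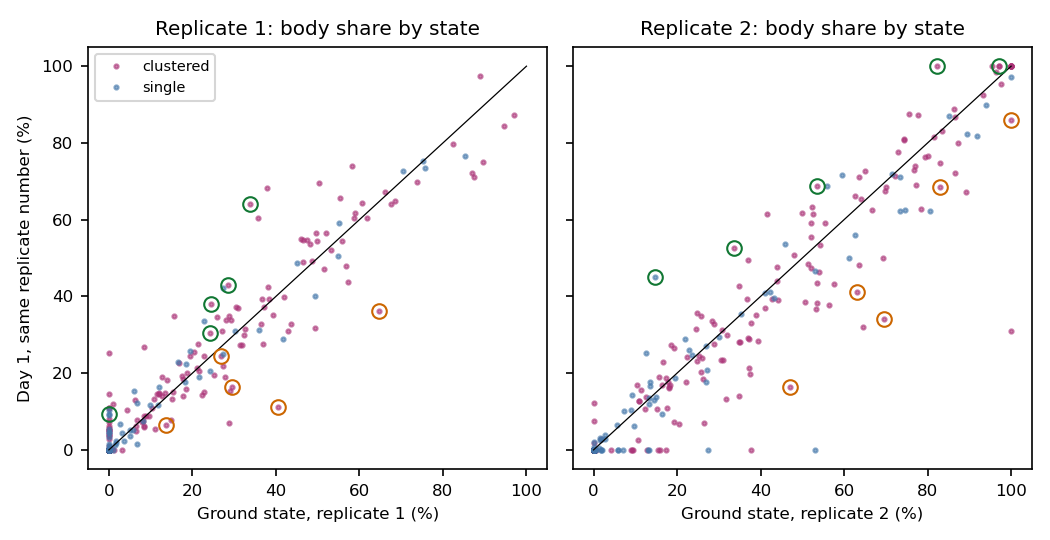
Body share of each Zfp gene under H3K9me3 in the ground state (horizontal axis, %) and at day 1 (vertical axis, %), by replicate number; red points are clustered and blue points single genes, green rings the 5 largest upward and orange rings the 5 largest downward differences that had the same sign in both numbers. Most points follow the line of equal values, and the ringed genes lie on the same side of it in both panels, some close to it, such as Zfp942 at 26.8% and 24.4% in replicate 1 and Zfp987 at 97.0% and 100% in replicate 2.

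H1.0 covered Zfp genes to about the degree that it covered other genes, and its level followed list length. The mean body share was 5.96% and 33.6% in ground-state replicates 1 and 2, against 6.43% and 39.9% in other genes. It was 35.9% and 1.72% in day 1 replicates 1 and 2, against 41.7% and 1.84%. The state difference in Zfp genes was −0.989 points (19.8% ± 19.6 in the ground state and 18.8% ± 24.1 at day 1, SD, n = 2 each; exact permutation, p = 1). It was 12.8 points without ground-state replicate 2 and 16.1 points without day 1 replicate 2. Within the M lists it was −4.23 points and within the others 2.25 points. Along the body, H1.0 was higher at the 5′ end: the 3′ end differed from it by −1.99, −19.1, −9.72 and −0.646 points, lower in 4 of 4 lists (mean −7.86 points, exact sign-flip permutation, p = 0.125; adjusted p = 0.202). The mean was −4.12 points without ground-state replicate 2. The 3′ minus 5′ difference in other genes was 1.08, −6.59, −1.29 and 0.0927 points, and the Zfp difference was the lower in 4 of 4 lists (exact sign-flip permutation, p = 0.125; adjusted p = 0.202). A peak within 500 bp of the start was present in 76.1% and 76.7% of Zfp genes in the 2 long H1.0 lists, against 63.2% and 67.9% of other genes. All 4 lists held an H1.0 peak in the body of 100 Zfp genes (25.2%, against 26.9% of all genes) and within 500 bp of the start of 10 (3.02%, against 1.24%).

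Inside the part of Zfp bodies that both H3K9me3 lists of a state covered, which for ground-state lists was 1.25 Mb and for day 1 lists 1.36 Mb of 13.3 Mb, H1.0 covered 12.7% and 40.2% in the ground-state lists and 37.8% and 5.19% in the day 1 lists. Outside it the values were 4.86% and 38.0%, and 36.6% and 1.66%. H1.0 was higher inside in 4 of 4 lists, by 3.69 points (exact sign-flip permutation, p = 0.125; adjusted p = 0.202). With H3K9me3 held in either list of a state, the differences were 7.17, −2.32, −0.555 and 3.93 points, with a mean of 2.06 points (exact sign-flip permutation, p = 0.5), so that H1.0 was higher inside in 2 of 4 lists. Without the chromosome 4 clusters the differences were 1.26, −11.1, −8.74 and 0.902 points, with a mean of −4.41 points (exact sign-flip permutation, p = 0.5). In the bodies of other genes they were 0.897, −12.3, −10.1 and 0.287 points. Zfp980, Zfp992, Zfp985 and Zfp979 on chromosome 4 each had H1.0 in all 4 lists, with 96.7%, 83.7%, 84.9% and 87.1% of their bodies under it in ground-state replicate 2. The named clustered and single genes of highest H3K9me3 on other chromosomes ran from 1.82% in Zfp781 to 56.0% in Zfp867 in that list. In day 1 replicate 1, the other long list, Zfp980, Zfp992, Zfp985 and Zfp979 had 28.1%, 77.6%, 79.5% and 64.4%. The named genes on other chromosomes ran from 10.4% in Zfp110 to 56.5% in Zfp640 there, so that Zfp980 lay within their range.

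MEF2C peaks were more frequent in Zfp than in other genes in 4 of the 8 lists, and less frequent or nearly equal in the other 4. Under siControl 21.2% and 49.1% of Zfp genes had a peak in the body, against 23.9% and 42.6% of other genes. Under siH1f0 the values were 44.8%, 51.4% and 28.7%, against 39.2%, 45.6% and 28.9%. Under siJunb they were 19.7%, 51.4% and 35.3%, against 21.0%, 45.4% and 35.5%. A peak lay in the body of 84 and 195 Zfp genes under siControl, of 178, 204 and 114 under siH1f0 and of 78, 204 and 140 under siJunb. Both siControl lists held one at 75 Zfp genes (18.9%, against 22.4% of all genes), and all 8 lists at 39 (9.82%, against 12.2%). The share of Zfp genes with a peak was 35.1% ± 19.8 (SD, n = 2) under siControl, 41.7% ± 11.7 (SD, n = 3) under siH1f0 and 35.4% ± 15.9 (SD, n = 3) under siJunb. None of the 3 differences, of 0.294 points (siJunb minus siControl), 6.51 points (siH1f0 minus siControl) and −6.21 points (siJunb minus siH1f0), exceeded the spread between libraries (exact permutation, p = 1, 0.6 and 0.7, smallest possible 0.1). Each changes sign when 1 library is left out: without siControl replicate 1 the first 2 were −13.7 and −7.47 points, without siJunb replicate 2 the first was −7.68 points, and without siJunb replicate 1 the third was 1.68 points. By naming, the M lists held 19.7% to 28.7% of Zfp genes and the others 35.3% to 51.4%.

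On average, MEF2C covered more of the 5′ end of Zfp bodies than of the 3′ end. The 5′ end of Zfp bodies was covered by 3.18% and 18.01% under siControl, 15.8%, 18.2% and 4.60% under siH1f0 and 3.05%, 11.3% and 10.7% under siJunb, and the 3′ end by 0.364% to 3.84%. The 5′ end was higher in 8 of 8 lists, with a mean 3′ minus 5′ difference of −8.82 points (exact sign-flip permutation, p = 0.00781, the smallest possible; adjusted p = 0.0820). The difference was more negative than in other genes in 8 of 8 lists, by −2.67 points (p = 0.00781 in the same exact test; adjusted p = 0.0820). Neither passed 0.05 after adjustment. A peak within 500 bp of the start was present in 38.7% of Zfp genes against 28.9% of other genes in siControl replicate 2, and in 9.97% against 11.04% in siControl replicate 1. Both siControl lists held one at 29 Zfp genes (8.76%, against 10.2% of all genes with a strand) and all 8 lists at 13 (3.93%, against 4.11%). Within 500 bp of the gene end all 8 lists held one at 1 Zfp gene (0.302%, against 0.617%).

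Within Zfp bodies, MEF2C covered less of the sequence under H3K9me3 than of the sequence free of it in all 5 siControl and siH1f0 lists. In the 3 siJunb lists the shares were nearly equal only where H3K9me3 was held in both day 1 lists. Inside H3K9me3 held in both day 1 lists, MEF2C covered 0.0758% and 2.27% under siControl, 0.0824%, 0.478% and 1.07% under siH1f0 and 0.787%, 4.80% and 3.22% under siJunb. Outside it the values were 1.01% and 4.18%, 3.92%, 5.54% and 1.36%, and 0.818%, 4.66% and 3.30%. The difference was −1.50 points over the 8 lists, lower inside in 7 of 8 (exact sign-flip permutation, p = 0.0391; adjusted p = 0.202), and p was 0.0781 when siControl replicate 1 or 2 or siH1f0 replicate 1, 2 or 3 was left out. It was −1.85 points with H3K9me3 held in either list and −1.91 points without the chromosome 4 clusters, lower inside in 8 of 8 lists in both (exact sign-flip permutation, p = 0.00781 for each). Neither of these p-values was adjusted, and leaving out the chromosome 4 clusters was chosen after seeing the data. The H3K9me3 used here came from siControl cells for every MEF2C list.

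With H3K9me3 held in both lists, the siJunb differences, −0.0301, 0.142 and −0.0769 points, lay above all of those under siControl (−0.934 and −1.91) and siH1f0 (−3.83, −5.06 and −0.293). Setting siJunb against siControl gave 1.43 points and against siH1f0 3.07 points (exact permutation, p = 0.1 for each, the smallest possible; adjusted p = 0.202). Both comparisons were chosen after the values were seen, so reaching the smallest possible p adds no support. With H3K9me3 held in either list, siJunb overlapped siH1f0: the differences were −0.120, −0.932 and −0.549 points under siJunb, −1.04 and −2.16 points under siControl and −3.92, −5.29 and −0.789 points under siH1f0. In the bodies of other genes the differences were −0.320, −1.79 and −0.854 points under siJunb, and −0.533 and −2.30 points under siControl, so that the groups overlapped there. Over the 8 lists the inside minus outside difference of Zfp genes was 0.136 points above that of other genes (exact sign-flip permutation, p = 0.727).

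Of the 26 Zfp genes with 50% or more of the body under H3K9me3 in all 4 lists, 4 (15.4%) and 17 (65.4%) had a MEF2C peak in siControl replicates 1 and 2, against 23.9% and 42.6% of other genes. Zfp68 had MEF2C in all 8 lists, also within 500 bp of its start, where H3K9me3 lay in 1 of 4 lists. Zfp955a had MEF2C at its start in all 8 lists as well, with a mean H3K9me3 share of 37.5% that lay towards its 3′ end. Zfp781 had none in any list. Genes with MEF2C in both siControl lists and in no siJunb list numbered 8 in the family (background 1.04%), and the same count for siH1f0 was 1, Zfp748 (0.137%). The 8 were Zfp428, Zfp574, Zfp69, Zfp706, Zfp710, Zfp748, Zfp788 and Zfp960, named after their values were seen. No H3K9me3 lay in any list in 4 of them, a share close to that of the family (188 of 397), and Zfp960 had the highest share, 73.5%.

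Genes of the machinery that writes and reads the mark stood apart from the Zfp genes in level. Of 25 such genes, 3 and 8 had an H3K9me3 peak in the ground-state lists and 4 and 5 in the day 1 lists. Among other protein-coding genes, 12.2% and 26.9% had one in the ground-state lists and 18.98% and 23.4% in the day 1 lists. At least 1 list held a peak in 9 of the 25 (36%, against 30.2% of all genes). How often they had a peak thus did not set them apart from genes at large. Their mean share was 1.09% over the 4 lists, and 2 of 25 (8%, against 11.6%) had a peak in all 4 lists. Those were Tasor, a subunit of the HUSH silencing complex, at 2.93%, 7.91%, 8.47% and 8.57%, and Atf7ip, a partner of SETDB1, at 4.13%, 7.13%, 3.00% and 7.89%. Trim28 and Setdb1 were at 0 in every list.

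Other gene families were set beside Zfp without a test. The 27 SCAN zinc finger genes averaged 5.36% over the 4 lists and 41 BTB zinc finger genes 0.357%. Olfactory receptor genes, which also form large arrays, had 4.45% and 19.7% in the ground-state lists and 8.90% and 29.7% in the day 1 lists, so that they lay below Zfp genes in both short lists and near or above them in the long ones. A peak in all 4 lists was found in 50 of 1110 olfactory receptor genes (4.5%) and 33 of 355 vomeronasal receptor genes (9.3%), both under the 11.6% of all genes. Other counts went the other way. At least 1 list held a peak in 37.1% and 36.9% of them, against 30.2% of all genes. A share of 50% or more in all 4 lists was found in 1.98% and 1.41%, against 0.727%. Their 3′ ends differed from their 5′ ends by −0.306 to 5.30 points, against 18.5 to 20.3 points in Zfp genes.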

How the data were processed

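CUT&RUN peak lists were analysed for 16 of 24 samples, 1 list each, and the 8 IgG samples were not analysed here. Per the submitters' processing notes, the authors used Bowtie2 and SEACR on mm10, with versions and the use of IgG in peak calling not given in the sources used here. The list names carry SEACR's relaxed setting. The deposited values are signal, the authors' summed coverage of a peak and the peak's highest coverage, with no scaling between samples to be seen, so levels were taken as covered length. Peaks of a list were merged, and the share of each gene body under peaks was computed with pandas 2.3.3 and numpy 2.4.6. Promoters were aligned with Biopython 1.88. RefSeq on GRCm38.p6 gave the gene bodies, and its promoter table gave strand and sequences (331 of 397 Zfp genes). Exons were not used here, so a position within a body is not assigned to an exon or intron.

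A mean over genes per library was compared with exact permutation tests over libraries, two-sided, at 0.05. Benjamini-Hochberg adjustment covered 21 comparisons, of which 10 were chosen after seeing the data. These 10 were the positions of H1.0 and MEF2C and the comparisons with other genes in position and in inside minus outside. They also took in the comparisons of MEF2C inside minus outside between siRNA groups. Genes served as no replicates. Named genes were, among bodies of 5 kb or more, the 8 clustered and 6 single genes with the highest mean share, the 5 largest differences each way with the same sign in both replicate numbers, a list of known roles and the largest clusters, with ties kept. The members and lists were chosen with earlier results of these data known. On simulated coverage over 317 Zfp genes the share was recovered within 0.024 percentage points. Alternatives covered list length, body limits, weighting, cluster distance, thresholds, overlap and each library in turn.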

Additional observations from a re-analysis of the deposited data

How the results depend on the processing

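The excess of Zfp over other genes, the excess of clustered over single genes, and the position of H3K9me3, H1.0 and MEF2C in the body kept their direction under every alternative run for them. For H3K9me3 and H1.0, 4 libraries allow no p below 0.125, or 0.25 with a library left out, so their side of 0.05 says nothing. Over libraries left out in turn, the clustered excess ran from 11.4 to 13.3 points and the 3′ excess of H3K9me3 from 19.2 to 19.9 points. Results near 0 changed sign. The day 1 minus ground-state difference in H3K9me3 ran from −5.41 to 4.33 points over libraries left out and was 0.126 points by summed body length. The same difference in the clustered excess ran from −3.37 to 2.43 points, and was 0.0248 points with peaks above the median maximum signal and 0.628 points by summed length. H1.0 between states ran from −18.1 to 16.1 points. The share of genes with MEF2C ran from −13.7 to 14.3 points (siJunb minus siControl), −7.47 to 20.5 points (siH1f0 minus siControl) and −14.2 to 1.68 points (siJunb minus siH1f0), and the first was −0.798 points with 5 kb on either side. MEF2C inside minus outside H3K9me3 ran from −1.74 to −0.991 points over libraries left out. H1.0 inside minus outside was −4.41 points without the chromosome 4 clusters, an alternative chosen after seeing the data. The cause of these changes was not tested.

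Counts of genes with 50% or more of the body under H3K9me3 in the ground state, at day 1 and in all 4 lists became 78, 78 and 69 at 25%, 10, 7 and 7 at 75%, and 16, 20 and 15 with 5 kb on either side. Leaving out a library gave 31 to 82, 36 to 69 and 26 to 33.

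With the replicate block, pairing samples of the same number, the state difference cannot change, because every library enters its pair with equal weight. It was therefore again −0.544 points for H3K9me3, −0.472 points for the clustered excess and −0.989 points for H1.0. Deviations of same-numbered samples correlated at 0.796 for H3K9me3 and −0.504 for H1.0, and the labels give no shared batch for a number. With 2 libraries against 2, or 2 pairs, no p under 0.05 was possible, so no call could be made with this pairing, with H1.0 paired crosswise (by list name), or without a block.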
